A study of Mus musculus with 12 samples.

Results

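The genes described here code for molecular chaperones and for proteins of the stress responses that act beside them. They were chosen by gene symbol: heat shock proteins, J-domain proteins, chaperonin subunits, HSP90 cochaperones, peptidyl-prolyl isomerases, lectins and disulfide isomerases of the endoplasmic reticulum (ER), stress sensors, redox enzymes and 14-3-3 proteins. Of the 3366 named 5′ UTRs in the tables, 45 (1.34%) belonged to this set. They held 188 of the 15767 tags, 1.19% of all tags.

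The tags came from eIF4G2 CLIP, in which ultraviolet light links the translation initiation factor eIF4G2 to the RNA it touches, the protein is immunoprecipitated and the attached RNA fragments are sequenced. The cells were mouse primary cortical neurons from CD-1 embryos, grown for 12 days. Resting neurons were compared with neurons that had been silenced with tetrodotoxin and DL-AP5 for 2 h, held in 55 mM KCl for 1 h and left to recover for 30 min, and all neurons of both groups received cycloheximide, which arrests ribosomes, for 2 min before harvest. There were 6 resting libraries (replicates 1 to 6) and 5 depolarized ones (replicates 1, 2, 3, 4 and 6), because the values labelled depolarized replicate 5 were a copy of resting replicate 5.

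Chaperones bind unfolded or partly folded proteins. HSP70 proteins take up such clients with the help of J-domain proteins, HSP90 and its cochaperones finish the folding of kinases and receptors, and the ring-shaped chaperonin encloses actin and tubulin while they fold. Lectins and disulfide isomerases do this work in the ER, whose overload starts the unfolded protein response. The 14-3-3 proteins are phosphoprotein-binding adaptors that are abundant in neurons. Many stress messages are controlled at their 5′ UTR, where short upstream reading frames (uORFs) can decide how often the main start codon is reached, and eIF4G2 is a factor that can carry out initiation on such leaders.

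Libraries were shallow, with 306 to 3224 tags at rest (median 821.0) and 264 to 5240 after depolarization (median 955.0). Replicate 1 of both conditions held 53.7% of all tags. Neuronal markers were tagged in all 11 libraries (59 resting and 167 depolarized tags on 10 listed genes of 15). Astrocyte markers had 5 and 6 tags on 2 listed genes of 7, microglial markers 1 tag, and none of the 7 oligodendrocyte markers was listed. The message of the antibody's own target, Eif4g2, carried 8 resting and 23 depolarized tags.

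The sequence CGCGGC is a hexamer that the study lists as an eIF4G2 motif. The study also reports that, of all motifs, it was crosslinked most often in this CLIP. It was searched on the sense strand of the longest GENCODE M21 transcript of each gene (GRCm38, the build called mm10), and overlapping matches were counted. Among the members with at least 3 tags it lay in the 5′ UTRs of Ptges3, Ywhah, Ywhaz, Herpud2, Hsp90b1, Prdx2 and Sesn2. The windows of the more heavily tagged 5′ UTRs that hold it are shown so that its setting can be seen, 5′ to 3′ on the strand of the gene, with the hexamer in capitals:
Ptges3 (chr10:128058954-128058982, plus strand): gattgcgcacgCGCGGCggccggcccggg
Ywhah, site at base 19 (chr5:33018822-33018851, plus strand): cgcccgcccgccCGCGGCgccccctatcct
Ywhah, site at base 50 (chr5:33018853-33018882, plus strand): tctcggcggctcCGCGGCgctcgccacagc
Ywhaz (chr15:36794239-36794268, minus strand): acccattgtcccCGCGGCtgtcacggtgtg
Herpud2, site at base 222 (chr9:25151582-25151611, minus strand): agccggcggaggCGCGGCggcgccgggccg
Herpud2, site at base 307 (chr9:25151497-25151526, minus strand): ctcgctctcggcCGCGGCcttctttccttc
Hsp90b1 (chr10:86705454-86705483, minus strand): gcccgacctgcgCGCGGCttagtgggcgga
Bases are counted from 1 at the 5′ end of the 5′ UTR. In Ptges3 the hexamer began at base 12 of 331, near the 5′ end, and in Ywhaz at base 283 of 602. Herpud2 held 6 hexamers over its 854 bases, 2 of which are shown, and the last began at base 573.

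Short uORFs were the other feature of interest. The search for short frames covered the members picked by the naming rule stated under data processing. Other members named below, among them Hspa5, Hsph1, Fkbp1a and Txndc16, also held upstream frames, whose lengths were not measured. Complete frames of at most 30 bases, longer than a start and a stop codon, are shown for the members searched. Start and stop codons are in capitals:
Nfe2l1 (chr11:96827985-96828008, minus strand): ATGggctgtggtgaagtaagtTGA
Ywhaz (chr15:36794434-36794442, minus strand): ATGcgcTAA
Herpud2 (chr9:25151075-25151086, minus strand): ATGtgcttgTGA
Dnajb9, frame at base 31 (chr12:44210276-44210296, minus strand): ATGcgccccagggaaggaTGA
Dnajb9, frame at base 197 (chr12:44210110-44210130, minus strand): ATGgggaagcgtttcgtgTAG
Nfe2l1 and Dnajb6 each also held a frame made of a start codon followed directly by a stop codon. The stop of the Nfe2l1 frame shown lay 277 bases before the main start codon, and that of the Herpud2 frame 108 bases before it.

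Tags on the members were few and unevenly spread. Of the 45 5′ UTRs, 44 held a tag, and the one without was that of Ahsa1, an activator of the HSP90 ATPase. A single tag was found on 18 members (40.0%, against 40.8% of all listed 5′ UTRs), 2 tags on 9, 3 to 9 tags on 11, and 10 or more on 6 (13.3%, against 9.42%). The median was 2.00 tags for members and for all listed 5′ UTRs, and the highest count was 22 for members and 527 for all. Tags in 1 library only were seen for 25 members (56.8% of those tagged, against 54.6%). Tags in 6 or more libraries were seen for 3, Ptges3, Ywhah and Nfe2l1 (6.67% of the 45, against 4.90% of all listed 5′ UTRs). The members were thus tagged to about the same extent as other listed 5′ UTRs.

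The share of a library's tags that fell on the members was, in resting replicates 1 to 6, 0.962%, 1.08%, 0.980%, 0.960%, 0.647% and 0.219%. In depolarized replicates 1, 2, 3, 4 and 6 it was 1.55%, 1.26%, 1.57%, 0.546% and 1.14%. All but 1 of the depolarized libraries lay above every resting library, and depolarized replicate 4 lay below 5 of them. Resting libraries had a mean of 0.808% ± 0.323 (SD, n = 6) and depolarized libraries one of 1.21% ± 0.416 (SD, n = 5), which differ by 0.404 percentage points, beside a pooled SD of 0.373. Within replicate numbers the share was higher after depolarization in 4 of 5 pairs, with differences of -0.414 to 0.917 points. In summed tags, 135 of the 188 (71.8%, Wilson 95% interval 65.0 to 77.8% for counting error alone) came from depolarized neurons, against 59.0% of all tags. Replicate numbers weigh unequally in these sums. Resting replicates 4, 5 and 6 gave 729, 928 and 913 of 6471 resting tags, and depolarized replicates 4 and 6 gave 549 and 264 of 9296. No test was made of the share of tags on the members, since the set was chosen with results of these data known. The tables hold no RNA levels, so more binding per message, more message per cell and more cells with the message cannot be told apart here.

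**Figure D1:**
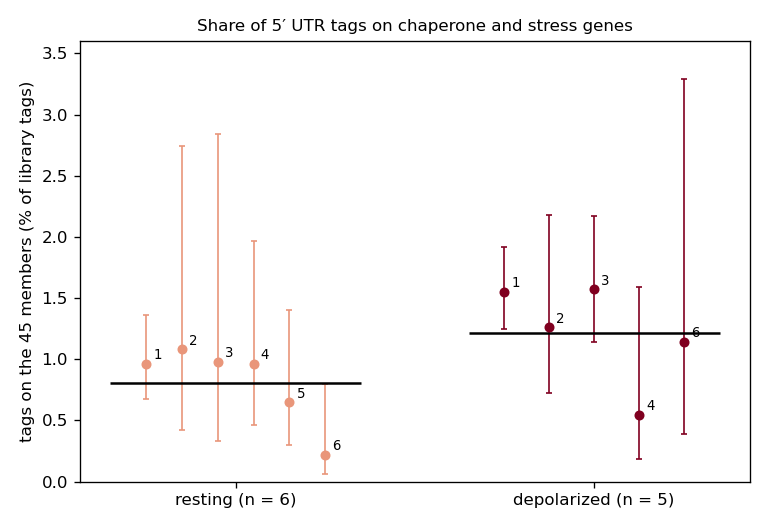
Share of each library's 5′ UTR tags that fell on the 45 members (vertical axis, percent) in resting and depolarized neurons. Points are libraries with their replicate number, bars are Wilson 95% intervals for counting error, and lines are group means (0.808% and 1.21%); depolarized replicates 1 and 3 are highest, and resting replicate 6 is lowest at 0.219%.

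Depth moved with these counts. Replicate 1 of both conditions held 112 member tags (59.6%), and the 3 deepest libraries held 148 (78.7%, against 68.2% of all tags). Of the 44 tagged members, 10 had tags in depolarized replicate 1 alone (22.7%, against 17.8% of all tagged 5′ UTRs). The part of depth in the results on single members was not tested.

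Depolarized libraries alone held the tags of 20 members (45.5% of the 44 with a tag), beside 36.3% of all tagged 5′ UTRs, and 10 of the 20 rested on 1 tag. Resting libraries alone held those of 9 members (20.5%), beside 27.9% of all, and 8 of the 9 rested on 1 tag. The other 15 members were tagged in both conditions. A pooled log2 fold change above 0, with no threshold on P, was found for 31 of the 44 (70.5%), beside 52.7% of all tagged 5′ UTRs. Among the 15, the median log2 ratio of depolarized to resting share was 0.48, with 11 above 0, and over the 1175 5′ UTRs tagged in both conditions it was -0.26, with 45.7% above 0. When every condition with fewer than 3 summed tags was set to 3, the median was -0.52 for the members and for all 5′ UTRs. That is the value of any 5′ UTR with both conditions at the floor, as most were, so these medians carry no comparison.

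The test that the study describes sums tags per condition, scales them for depth and calls a 5′ UTR at a binomial P below 0.2. It carries no spread between replicates. Of the 44 tagged members, 4 were called with more tags after depolarization (9.09%), beside 5.21% of all tagged 5′ UTRs, and 0 with fewer, beside 4.51%. The 4 were Herpud2, Ywhab, Ywhaz and Dnaja1. None of them passed a Benjamini-Hochberg adjusted P of 0.05 in this exact test.

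With replicates as the unit, edgeR's quasi-likelihood test was run on the 317 5′ UTRs with at least 10 tags, 6 of them members. It called 0 members higher and 0 lower at an adjusted P below 0.05 (0% and 0% of all tested), and 0 in either direction at an unadjusted P below 0.05 (7.57% higher and 0.315% lower among all tested). DESeq2 called 0 members in either direction, also at an unadjusted P below 0.05, where it called 2 higher and 2 lower of all 317. The fitted log2 fold changes of the 6 ran from 0.13 to 1.80, beside a median of 0.52 over all tested 5′ UTRs with TMM scaling and of 0.38 with library totals. The fit's common dispersion was 1.00, so that counts of replicates varied far more than sampling alone gives.

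By role, the 14-3-3 proteins held the most tags, 60 of 188 (31.9%) on 5 genes. All 5 were tagged in both conditions, as were 1175 of all 3280 tagged 5′ UTRs. The 5 held 14 resting and 46 depolarized tags in sum. In resting neurons they took 0.187% ± 0.150 of a library's tags (SD, n = 6) and in depolarized neurons 0.299% ± 0.288 (SD, n = 5), means that lie closer together than either SD. Without replicate 1 they had 4 resting and 17 depolarized tags.

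**Figure D2:**
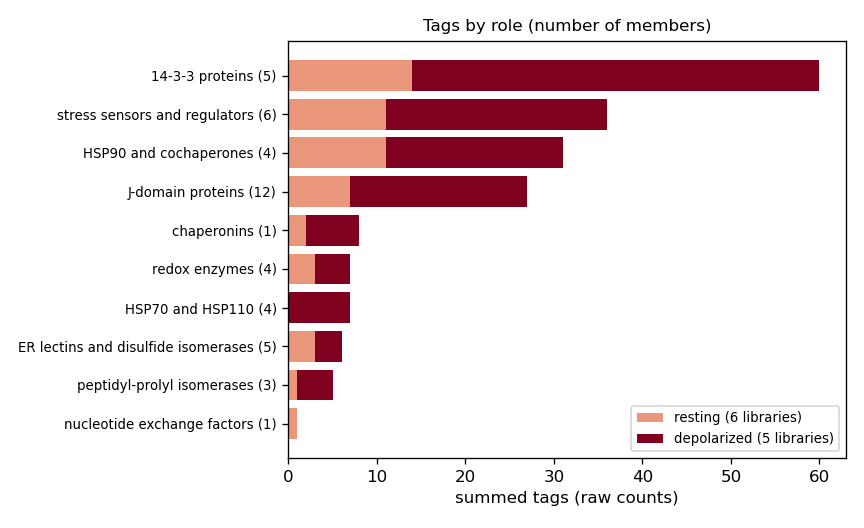
Summed raw tags (horizontal axis) on the members of each role, split into the 6 resting and 5 depolarized libraries, with the number of genes in brackets. The 14-3-3 proteins lead with 60 tags, and the HSP70 and HSP110 bar holds 7 depolarized and 0 resting tags on 4 genes. Of all tagged 5′ UTRs, 36.3% had tags in depolarized libraries alone.

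Ywhah codes for the eta isoform of 14-3-3. Its 5′ UTR (chr5:33018816-33019067, 252 bases in 1 exon) held, in replicate order, 3, 1, 0, 0, 1 and 0 tags at rest and 11, 0, 2, 1 and 0 after depolarization. The 11 tags of depolarized replicate 1 came from the deepest library, and as CPM, tags scaled by the library's total, the highest value was in resting replicate 2, so the groups overlapped. Ywhah had 784 ± 1059 CPM (SD) in the 6 resting libraries and 959 ± 986 CPM in the 5 depolarized ones. In edgeR its log2 fold change was 0.78 (SE 1.07, adjusted P = 0.908), and the pooled test did not call it (P = 0.238, exact binomial).

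Ywhag, the gamma isoform, had a 5′ UTR of 190 bases (chr5:135934410-135934599). Tags were confined to 3 of the 11 libraries, with 3 in resting replicate 1, 4 in depolarized replicate 1 and 6 in depolarized replicate 3. These are the 3 deepest libraries, and all others stood at 0. Its log2 fold change in edgeR was 1.42 (SE 1.15, adjusted P = 0.829). The ratio of summed tags was 2.32 with a counting interval of 0.597 to 13.1 (P = 0.388, exact binomial).

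Ywhaz, the zeta isoform (5′ UTR chr15:36790978-36794538, 602 bases in 3 exons), showed nearly the same distribution. It held 1 tag each in resting replicates 1 and 5, 4 in depolarized replicate 1 and 6 in depolarized replicate 3, and 0 in the other 7 libraries. The CPM value of depolarized replicate 3 (2622) was above every resting library, and 3 of the 5 depolarized libraries were at 0. The pooled test called it (P = 0.109, adjusted P = 1.00, exact binomial), at a ratio of 3.48 with a counting interval of 0.742 to 32.7. The exact test within replicate numbers did not call it (P = 0.453). The pooled call was lost without replicate 1 (P = 0.219), 3 (P = 0.688), 4 (P = 0.227) or 6 (P = 0.227, exact binomial). The edgeR log2 fold change was 1.72 (SE 1.19, adjusted P = 0.716).

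Ywhab, the beta isoform (5′ UTR chr2:163994960-164011604, 409 bases in 2 exons), held 1 tag in resting replicate 1, 8 in depolarized replicate 1 and 1 in depolarized replicate 3. Its other 8 libraries were at 0, so 9 of its 10 tags lay in replicate 1. The pooled test called it (P = 0.0391, adjusted P = 1.00, exact binomial), at a ratio of 6.26 with a counting interval of 0.868 to 275, and the call was lost without replicate 1 (P = 1.00, exact binomial). The exact test within replicate numbers kept it (P = 0.104). In edgeR the log2 fold change was 1.80 (SE 1.19, adjusted P = 0.708). Ywhae, the epsilon isoform, which is named here after its values were seen to complete the family, had 3 tags in each condition.

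**Figure D3:**
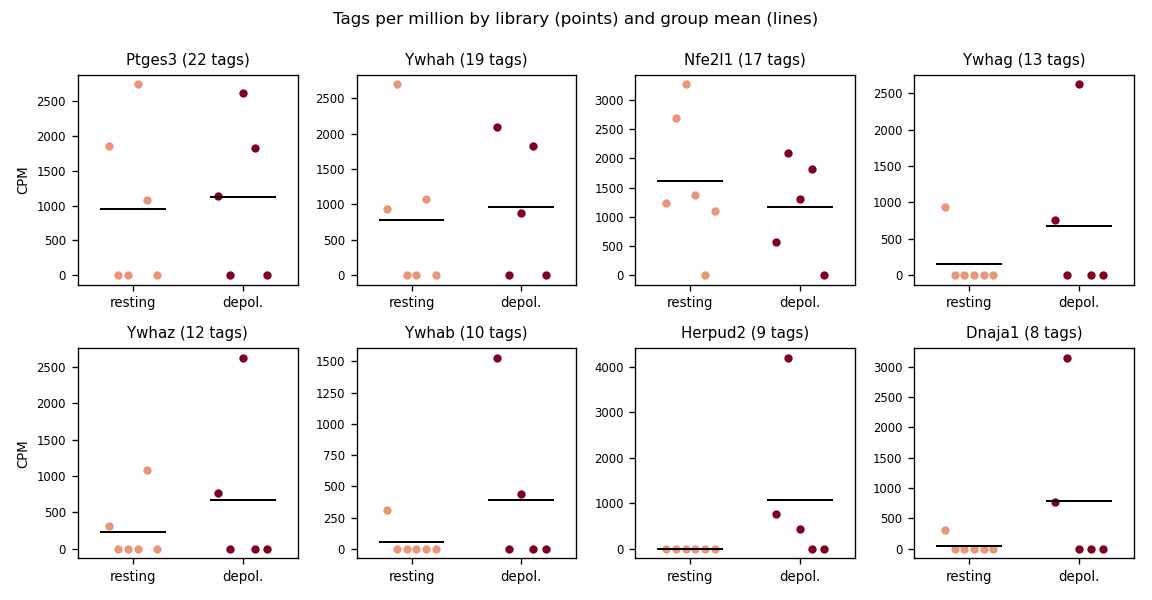
Tags scaled by library total (CPM, vertical axes, each on its own scale) by library for the 6 members with at least 10 tags and the other 2 called by the pooled test. Points are the 6 resting and 5 depolarized libraries and lines are group means. Values of 0 occur in both groups in every panel, and in Herpud2 all 6 resting libraries are at 0.

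HSP90 and its cochaperones held 31 tags, 11 resting and 20 depolarized. Ptges3, which codes for the cochaperone p23, was the most tagged of all 45 members. Its 5′ UTR (chr10:128058954-128059284, 331 bases) held 6, 0, 0, 2, 1 and 0 tags at rest and 6, 0, 6, 1 and 0 after depolarization. The groups overlapped over their whole range, with 947 ± 1164 CPM (SD) in the 6 resting libraries and 1118 ± 1147 CPM in the 5 depolarized ones. The depth-scaled ratio of its summed tags was 1.01 (counting interval 0.398 to 2.67), and edgeR gave a log2 fold change of 0.35 (SE 1.03, adjusted P = 0.949).

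Hsp90b1 (5′ UTR chr10:86705356-86705509, 154 bases) codes for GRP94, the HSP90 of the ER. It held 1 tag each in resting replicates 4 and 5, 5 in depolarized replicate 1 and 1 in depolarized replicate 3. Both groups included libraries at 0, and the ratio was 2.09 with a counting interval of 0.373 to 21.2 (P = 0.453, exact binomial). A microRNA gene of the annotation, Gm25745, lies on the same strand within this 5′ UTR, and 53.1% of its 25-base windows recur in that RNA, so tags of the leader and of the small RNA cannot be told apart. Stip1, which links HSP70 to HSP90, had 1 tag in depolarized replicate 2.

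The HSP70 and HSP110 genes Hspa5 (BiP, the HSP70 of the ER), Hspa4, Hsph1 and Hspa1b, named after their values were seen, had 0 tags in the 6 resting libraries and 7 in the depolarized ones. All 4 were thus tagged in depolarized libraries alone, as were 36.3% of all tagged 5′ UTRs. The 7 tags lay in 4 of 5 depolarized libraries, with none in replicate 4, and no gene had more than 2. For each of them both conditions were within 3 counts, so no fold is given. The pooled test called none of the 4, and the exact test within replicate numbers called Hsph1 on its 2 tags (P = 0.139). Of the 25-base windows in the Hspa1b 5′ UTR, 75.4% recur in its near-identical neighbour Hspa1a, so the Hspa1b tag is uncertain.

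J-domain proteins, which hand clients to HSP70, were the largest role, with 12 genes, 7 resting and 20 depolarized tags. Dnaja1, a cytosolic J-domain protein, held 1 tag in resting replicate 1, 4 in depolarized replicate 1 and 3 in depolarized replicate 2. The other 8 libraries had none, and the CPM of depolarized replicate 2 (3141) stood above all others. The pooled test called it (P = 0.125, adjusted P = 1.00, exact binomial), at a ratio of 4.87 with a counting interval of 0.626 to 220. Without replicate 1 (P = 0.250) or replicate 2 (P = 0.625, exact binomial) it was not called, nor by the exact test within replicate numbers (P = 0.275). The 5′ UTR of Dnaja1 (chr4:40722922-40723712, 225 bases in 2 exons) contains the Mir207 gene on the same strand, and 24.9% of its 25-base windows lie in that hairpin RNA.

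Dnajb6, whose product restrains aggregation of polyglutamine proteins, had 1 resting and 2 depolarized tags, each in another library. Dnajb9 (ERdj4), a J-domain protein of the ER, had 1 tag in resting replicate 4 and 2 in depolarized replicate 1. Dnajc5, the cysteine string protein of synaptic vesicles, named after its values were seen, had 1 and 2 tags, all in replicate 1. In this role 6 of the 12 genes rested on 1 tag, 5 were tagged only in depolarized and 3 only in resting libraries, beside the 36.3% and 27.9% of all tagged 5′ UTRs given above.

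Among stress sensors and regulators (6 genes, 11 resting and 25 depolarized tags), Nfe2l1 was the most widely tagged of all members. It codes for a transcription factor of the ER membrane that raises proteasome gene expression. Its 5′ UTR (chr11:96827708-96829968, 666 bases in 2 exons) held 4, 1, 1, 1, 0 and 1 tags at rest and 3, 2, 3, 1 and 0 after depolarization, which is 9 of the 11 libraries. The groups overlapped throughout, with 1612 ± 1181 CPM (SD) in the 6 resting libraries and 1160 ± 869 CPM in the 5 depolarized ones. In edgeR the log2 fold change was 0.13 (SE 1.09, adjusted P = 0.995), a sign that turned under 8 other settings, among them library totals (-0.17) and DESeq2 (-0.19).

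Herpud2, a relative of the ER-associated degradation factor Herp, gave the clearest contrast. Its 5′ UTR (chr9:25150967-25151820, 854 bases, the longest of the 45) had 0 tags in all 6 resting libraries and 4, 4, 1, 0 and 0 tags in depolarized replicates 1, 2, 3, 4 and 6. The groups met at 0 in depolarized replicates 4 and 6, which were shallow (549 and 264 tags). With its resting sum set to a floor of 3 counts, its share was 2.09-fold higher after depolarization. The counting interval of its ratio began at 1.37, so 2.09 is not a lower limit. The pooled test called it (P = 0.00781, adjusted P = 0.434, exact binomial). With 9 tags Herpud2 was below the 10 needed for the main edgeR fit. In the edgeR fits with at least 5 tags or at least 1 tag, 0 members had an adjusted P below 0.05 (lowest 0.331 and 0.382). Without replicate 1 Herpud2 still had 5 depolarized and 0 resting tags and was called again (P = 0.0625, exact binomial), at a ratio of 1.33 against the floor. Without replicate 2 the ratio against the floor was 1.22 (P = 0.125, exact binomial), and the exact test within replicate numbers gave P = 0.0607.

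Sesn2, a stress-induced sestrin that restrains the growth kinase mTORC1, had 2 tags in resting replicate 2 and 1 each in depolarized replicates 1 and 3. Gadd45a, a stress-induced growth arrest gene named after its values were seen, had 3 tags, all in depolarized replicate 1. Neither was called (P = 1.00 and P = 0.250, exact binomial).

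Cct4, a subunit of the chaperonin (5′ UTR chr11:22990519-22990753, 235 bases), held 1 tag each in resting replicates 1 and 3, 5 in depolarized replicate 1 and 1 in depolarized replicate 3. Its ratio of 2.09 had a counting interval of 0.373 to 21.2, and the pooled test did not call it (P = 0.453, exact binomial). The sister subunit CCT1 is coded by Tcp1, whose symbol lies outside the rule. Tcp1 was the most tagged of all listed 5′ UTRs, with 341 resting and 186 depolarized tags, and was called with fewer tags after depolarization (log2 fold change -1.40, P = 1.36e-27, exact binomial on pooled sums). It held 56, 2, 6, 80, 112 and 85 resting and 51, 5, 8, 86 and 36 depolarized tags in replicate order, and edgeR, which weighs replicates, gave a log2 fold change of -0.08 (SE 1.10, adjusted P = 0.995).

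The remaining roles were thinly tagged. Redox enzymes had 3 resting and 4 depolarized tags on 4 genes, with Prdx2, a cytosolic peroxidase, at 2 tags in resting replicate 1 and 1 each in depolarized replicates 1 and 3. One of the 4, Txnl4a, is a spliceosome component that the rule took by its symbol. Lectins and disulfide isomerases of the ER had 3 and 3 tags on 5 genes, all in replicate 1. Peptidyl-prolyl isomerases had 1 and 4 tags on 3 genes, and Bag6, the only member with a Bag symbol, 1 resting tag.

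Per length of 5′ UTR the order of the members changed. Ywhah led with 7.54 tags per 100 bases (exact Poisson 95% interval 4.54 to 11.8), before Ywhag with 6.84 (3.64 to 11.7), Ptges3 with 6.65 (4.17 to 10.1) and Hsp90b1 with 5.19 (2.24 to 10.2). The intervals of these 4 overlapped, so their order is not resolved. Nfe2l1 had 2.55 (1.49 to 4.09) and Herpud2 1.05 (0.482 to 2.00), and the interval of Herpud2 lay below those of the leading 4. Per 100 bases, Ywhah lay above 96.3% of all listed 5′ UTRs with a sequence and Herpud2 above 64.2%. The median of the members was 0.962, beside 0.699 for all. Across the 45 members, length and tags had a Spearman correlation of 0.478, beside 0.242 across all 3316, given as a description over genes that share libraries.

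**Figure D4:**
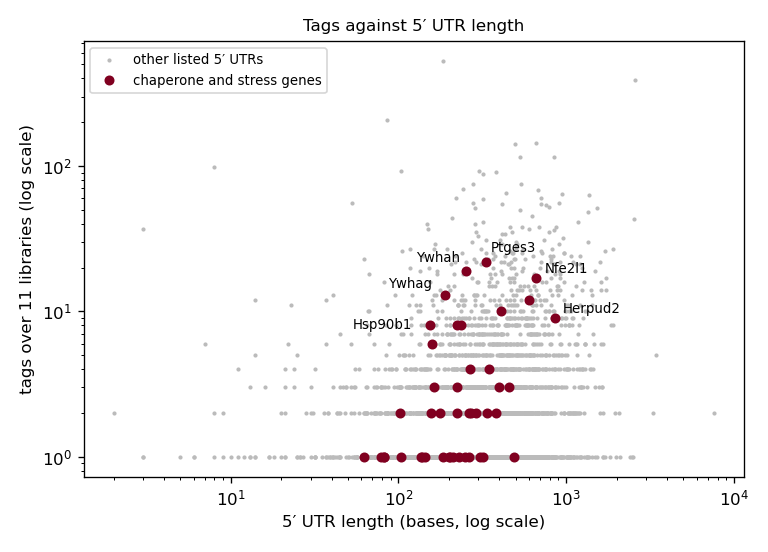
Tags summed over 11 libraries (vertical axis, log scale) against 5′ UTR length in bases (horizontal axis, log scale) for tagged members and other tagged 5′ UTRs. Members span 62 to 854 bases; Ptges3, Ywhah and Ywhag lie high for their length, and Herpud2 is the longest member.

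The 5′ UTRs of the members were short and rarely held an upstream start codon. Their median length was 225 bases, beside 306 over the 3316 listed 5′ UTRs with a sequence, and their median GC content 68.1%, beside 65.9%. An upstream ATG was present in 16 of 45 (35.6%), beside 66.6% of all. Listed 5′ UTRs of the same length deciles held one in 57.1%, so the lower share remained beside 5′ UTRs of like length. In all 16 at least 1 upstream frame closed before the main start codon (35.6%, beside 60.9% of all). The 16 carried 39.4% of the member tags, where 5′ UTRs with an upstream ATG carried 64.0% of tags on all listed 5′ UTRs.

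The hexamer CGCGGC was present in 15 of 45 members (33.3%), beside 36.8% of all and 32.8% in the same length deciles. Those 15 carried 88 of the 188 tags (46.8%), beside 46.5% of tags on all listed 5′ UTRs. The share of members with the hexamer was therefore near that of all listed 5′ UTRs. On the transcript with the longest 5′ UTR of each gene the shares were 28.9% (13 members) and 36.0%. The 5′ UTRs compared all come from this CLIP, so enrichment over other 5′ UTRs was not tested for the hexamer. Of the 4 members called by the pooled test, Herpud2 (6 sites, 2 of them shown above) and Ywhaz (1 site, shown above) held it, and Ywhab and Dnaja1 had no match in these 5′ UTRs. These figures describe letters in a 5′ UTR model and not crosslink sites, whose positions the tables do not give.

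**Figure D5:**
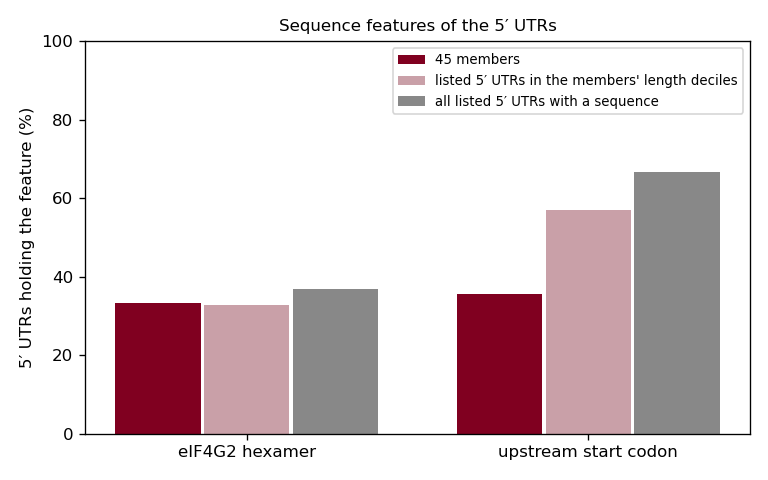
Percent of 5′ UTRs (vertical axis) that hold the eIF4G2 hexamer or an upstream start codon, for the 45 members, for listed 5′ UTRs in the same length deciles, and for all 3316 with a sequence. The hexamer bars are alike (33.3%, 32.8% and 36.8%), and the start codon bar of the members is lowest (35.6%, 57.1% and 66.6%).

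Small RNA genes overlapped the 5′ UTRs of 3 members (6.67%), Dnaja1, Hsp90b1 and Dnajb9, beside 24 of all 3316 (0.724%). The Mir5627 gene in Dnajb9 lies on the opposite strand. Another gene overlapped the 5′ UTR of 5 members, among them Prdx2 (Rnaseh2a, opposite strand) and Dnajb6 (Gm5129, opposite strand). Whether the counting used strand is not given in the sources used here, so their tags are uncertain.

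Of 69 other proteostasis and stress genes set down as a list, 17 were in the tables and only Tcp1 had at least 10 tags. The pooled test called 0 of the 17 with more and 1, Tcp1, with fewer tags, beside 5.21% and 4.51% of all tagged 5′ UTRs. Stub1, among the 17, had 0 tags and could not be called. Without Tcp1 the 17 had 14 resting and 20 depolarized tags, and 9 of them rested on 1 tag.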

How the data were processed

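The authors filtered and demultiplexed the single-end CLIP reads, removed linkers and exact duplicates, mapped what remained to mm10 and counted it on 5′ UTRs of UCSC genes, using each gene's longest transcript. The submitters' processing notes also name cutadapt. The deposited values are raw counts of tags per 5′ UTR and library, not normalized and not pooled. The handling of reads with several matches, the strand setting and the rule by which 5′ UTRs were listed are not given in the sources used here. No molecular identifiers are stated, and so every interval and floor covers counting error alone.

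Groups came from the sample labels, which name 6 replicates per condition. The study's text gives 5 and the series description 3. Depolarized replicate 5 holds the values of resting replicate 5 and was left out (1 library). The closest pair of the other libraries differed at 316 5′ UTRs. A single unnamed entry, with 0 tags (0%), was dropped.

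For the pooled test, each condition's tag sums were brought to the mean depth, rounded and compared by a two-sided exact binomial test against 0.5 (P below 0.2, pseudocount 0.1 for the log2 fold change). edgeR 4.0.16 (R 4.3.3; quasi-likelihood, TMM, Benjamini-Hochberg over all tested) used 5′ UTRs with at least 10 tags. DESeq2 1.42.0, other scalings, filters and thresholds, a replicate block and each replicate left out were alternatives. The scripts were tested on simulated data. Python 3.11.15, numpy 2.4.6, pandas 2.3.3, scipy 1.17.1 and matplotlib 3.10.9 were used.

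The labels say that resting and depolarized samples of a replicate were pooled after reverse transcription. Same-numbered libraries deviated together, with correlations of 0.15 to 0.31 in the 5 pairs. These were not compared with libraries of different numbers, so they do not show that the numbers pair the samples. Nothing in the tables ties libraries to separate animals. P values of edgeR and DESeq2 measure only the spread between these samples, and those of the exact tests measure counting error alone.

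The 45 members matched GENCODE M21 (GRCm38) by symbol. That annotation can differ from the transcripts the authors counted on. Members and lists were chosen with earlier results of these data known. The text names every member with at least 10 tags, every member called by the pooled test and, in each role, the 3 with the most tags if these had at least 3. All other members named (among them Stip1, Ahsa1, Bag6, Txnl4a, Txndc16 and Fkbp1a) were chosen after their values were seen.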

Additional observations from a re-analysis of the deposited data

Results flagged for a closer look

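For 15 measures (the summed share of the members and the CPM of single members), groups of 4 to 10 libraries were searched for a library far from the others, and 3 of 15 groups held one. For normally distributed values chance gives about 1 in 20, or 0.75 here. Small counts with many zeros and unequal depth are not such values, so the 3 cannot be compared with 0.75. In Herpud2, depolarized replicate 2 had 4188 CPM and the next library 763, although both rested on 4 tags. In Dnaja1, depolarized replicate 2 had 3141 CPM (3 tags) and the next library 763 (4 tags). In Ywhab, depolarized replicate 1 had 1527 CPM (8 tags) and the next library 437 (1 tag). Depolarized replicate 2 held 955 tags, the median of its group, and depolarized replicate 1, with 5240, was the deepest library.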

How the results depend on the processing

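The share of tags on the members stayed higher after depolarization under 11 alternatives, by 0.305 to 0.633 percentage points. In edgeR and DESeq2, 0 members were called in either direction at an adjusted P below 0.05 under 13 alternatives. At an unadjusted P below 0.05, edgeR called 1 of 11 members higher with at least 5 tags, beside 58 of 729 5′ UTRs. With at least 1 tag it called 1 of 44, beside 86 of 3280. The pooled test's count of 4 members with more tags (9.09%, beside 5.21% of all) became 2 at P below 0.05 (4.55%, beside 2.56%), 0 at an adjusted P below 0.05 (beside 0.427%), 2 of 6 with at least 10 tags (33.3%, beside 33.8%), 6 with TMM sizes (13.6%, beside 7.53%) and 0 of 14 in replicates 4 to 6 alone (beside 3.73%). Leaving out a replicate number gave 2 to 4 (7.14 to 9.52%, beside 4.53 to 5.32% of all). Without replicate 1 it was 2, Herpud2 and Ywhag (7.14%, beside 4.79%). The count of 0 members with fewer tags became 1 (2.27%), Txndc16, with raw sums, with TMM sizes and within replicate numbers, where 10.9%, 10.5% and 9.79% of all tagged 5′ UTRs were called.

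The replicate block changed no edgeR call, with adjusted P = 0.996 for all 6 members, and the exact test within replicate numbers called 4 with more tags (Herpud2, Ywhab, Fkbp1a and Hsph1; 9.09%, beside 4.24% of all), without Dnaja1 and Ywhaz. Signs turned for Ywhaz in replicates 4 to 6 (pooled log2 fold change -2.92) and for Ptges3 without replicate 3 (edgeR; leaving out 1 number gave -0.56 to 0.79). Nfe2l1 turned with library totals (-0.17), DESeq2 (-0.19), at least 5 tags (-0.044), the replicate block (-0.30), replicates 1 to 3 (-0.28), all 12 libraries as labelled (-0.18), and without replicate 3 (-0.049) or 5 (-0.080), where leaving out 1 number gave -0.080 to 0.39. The cause was not tested. No member reached 10 tags in replicates 4 to 6, so edgeR gave no value there. With 18 members at 1 tag, differences on most single members were not detectable at this depth.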
